A study of Mus musculus with 15 samples.

Results

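The comparison described here set the extremes of NRF2 activity in 1 mouse lung tumor line against each other. It used 12 of the 15 RNA-seq samples of the study, namely the 9 samples of the *KEAP1* KO clones #1, #2 and #3 (3 each) and the 3 samples of *NRF2* KO, while the 3 samples of the parental line (LL2 WT) served only to place the baseline. The parent is LL2/Luc2, a luciferase-marked Lewis lung carcinoma line. Each knockout line grew from a single sorted cell after transfection of a plasmid with Cas9, GFP and a guide RNA against *Keap1* or *Nfe2l2*, so each line is 1 clone, *NRF2* KO is represented by 1 clone only, and effects of the clone and of the edited gene cannot be told apart in it. All lines were grown in DMEM with 10% fetal bovine serum, without a treatment, and RNA was taken from 3 cultures described as biologic replicates.

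KEAP1 is the substrate adaptor of a CUL3 ubiquitin ligase that keeps NRF2, a transcription factor encoded by *Nfe2l2*, at a low level. When KEAP1 is lost, NRF2 persists, pairs with small MAF proteins and binds antioxidant response elements in genes for glutathione synthesis, quinone reduction, NADPH production, iron handling and drug export. *KEAP1* and *NFE2L2* are among the genes recurrently mutated in human lung cancer, where NRF2 activity is known for resistance to oxidants and drugs.

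The deposited values are CPM, that is, estimated transcript counts summed by gene and scaled to the same total in every sample. They carry no read numbers, so the depth of each sample is unknown, and 3 reads at the mean depth stated in the methods correspond to about 0.1 CPM, which was used as the floor. Every sample held between 17270 and 19750 symbols above 0. Spearman's rho over the 14652 genes tested averaged 0.983 within a *KEAP1* KO clone, 0.974 between clones, 0.979 within *NRF2* KO and 0.951 (0.927 to 0.969) between *KEAP1* KO and *NRF2* KO samples. Markers of lung epithelium were near or at 0 in all lines: *Epcam*, *Cdh1* and *Nkx2-1* did not exceed 0.0618 CPM in any sample and *Scgb1a1*, a club cell gene, was 0 throughout. The leukocyte marker *Ptprc* stayed at or below 0.192 CPM, and 4 of 11 leukocyte markers did not pass the floor in any sample. The summed level of 7 endothelial markers ranged from 3.38 to 8.32 CPM over the *KEAP1* KO samples and from 4.24 to 7.56 CPM over the *NRF2* KO samples, with *Cldn5* and *Emcn* at 0. Of the 3 tested, *Vwf* (log2 1.85) and *Cdh5* (1.18) were called higher, at means of at most 1.498 CPM in any clone, and *Vwf* lost its call with clone #1 alone (1.32). The summed level of 6 erythroid markers ranged from 0.553 to 2.74 CPM and from 0.415 to 2.07 CPM in the same order, with *Hbb-bs* at 0. Of the 3 erythroid markers tested, 1 was called higher (log2 1.85) and none lower. For 10 alveolar and airway markers the sums were 1.71 to 6.29 CPM in *KEAP1* KO and 7.78 to 18.1 CPM in *NRF2* KO, carried by *Hopx* (log2 fold change −2.21), with *Sftpa1*, *Sftpd* and *Scgb1a1* at 0 in all samples. Of the 3 alveolar and airway markers tested, *Hopx* was called lower and 1 other was called higher (log2 1.36). Simple-epithelium keratins (*Krt8*, 65.1 to 186 CPM in *KEAP1* KO) and the mesenchymal filament gene *Vim* were present in all samples.

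*Keap1* (chromosome 9, 21229730 to 21239361, minus strand; positions from GENCODE vM21 on GRCm38 throughout) was 21.8, 21.6 and 24.8 CPM in the *NRF2* KO samples, 24.0, 22.0 and 22.9 CPM in LL2 WT and 3.78 to 12.5 CPM (median 6.83) in *KEAP1* KO. The *KEAP1* KO samples all lay below the *NRF2* KO samples. The clone means were 11.8, 5.53 and 5.58 CPM for #1, #2 and #3, and the log2 fold change of *KEAP1* KO over *NRF2* KO was −1.68 (standard error 0.17, limma adjusted p = 1.2e-05). *Keap1* is not called if clone #1 alone is compared with *NRF2* KO (−0.94). *Nfe2l2* (chromosome 2, 75675513 to 75704641, minus strand), whose protein rather than its RNA was the aim of the knockout, was 102, 108 and 146 CPM in *NRF2* KO and 87.0 to 124 CPM (median 115) in *KEAP1* KO. These ranges overlapped, and the log2 fold change of −0.08 (standard error 0.10, limma adjusted p = 0.64) is not called. Without *NRF2* KO replicate 3 its sign turned (0.08). LL2 WT lay above both with 179, 170.2 and 208 CPM. An indel in the coding sequence need not change the RNA level, so the RNA of *Nfe2l2* does not check the label.

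Between the genotypes, 1457 of 14652 genes tested (9.94%) were called, which needed a limma p under 0.05 after Benjamini-Hochberg adjustment and a log2 fold change above 1 or below −1. Of these, 761 (5.19% of the genes tested) were higher and 696 (4.75%) lower in *KEAP1* KO. These shares are the background for the counts of called list members given below. The fold change here and below is the mean of the 3 clone means minus the *NRF2* KO mean on the log2(CPM + 0.1) scale, which understates changes of low genes, and its median over all genes tested was −0.0029. For 1402 genes (9.57%) all 9 *KEAP1* KO samples lay above all 3 *NRF2* KO samples, and for 1017 (6.94%) all lay below. The largest differences were increases: 126 genes were called with a log2 fold change above 3 and 67 with one below −3. The p-values measure the spread between cultures of these clones, and with 4 clones in all they cannot stand for the spread between independent knockouts. Treating each line as 1 sample left 78 genes called higher and 18 lower, of which 75 and 18 were among the calls above. In addition, a bulk library cannot tell a change in every cell from a change in the share of cells that express a gene.

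**Figure D1:**
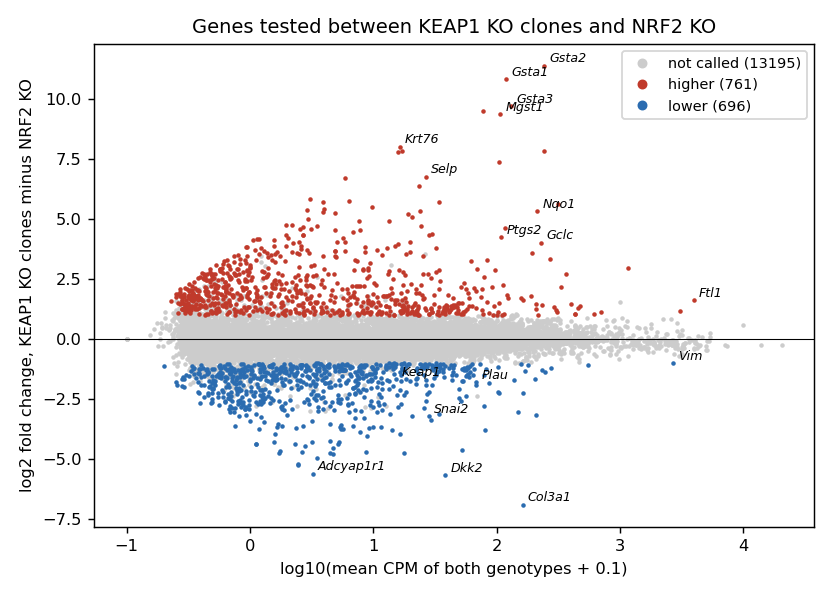
Log2 fold change of *KEAP1* KO over *NRF2* KO (y axis) against the log10 of the mean CPM of both genotypes plus 0.1 (x axis) for the 14652 genes tested. Red points are the 761 genes called higher, blue points the 696 called lower and grey points the rest, and the α-class glutathione transferases stand at the top and *Col3a1* at the bottom.

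Glutathione synthesis and turnover stood among the most changed groups: 6 of 15 genes tested were higher, 1 was lower, and the median log2 fold change was 0.93. *Gclc* (chromosome 9, 77754535 to 77794485), the catalytic subunit of glutamate-cysteine ligase that limits the rate of glutathione synthesis, was 25.4, 31.6 and 22.8 CPM in *NRF2* KO and 386 to 494 CPM (median 426) in *KEAP1* KO. Its modifier subunit *Gclm* (chromosome 3, 122245557 to 122270732) was 52.3, 58.5 and 35.4 CPM and 366 to 623 CPM (median 495), respectively. Neither gene overlapped between the genotypes, and the mean CPM was 16.1-fold and 10.14-fold higher (log2 4.01 and 3.35, limma adjusted p = 4.41e-12 and 1.61e-08). *Slc7a11* (chromosome 3, 49892526 to 50443614), the cystine importer that supplies cysteine, rose from 1.60, 1.33 and 4.25 CPM in *NRF2* KO to 14.0 to 104 CPM (median 54.9), a log2 fold change of 4.40 (adjusted p = 1.02e-06). Its clones differed (limma F test among the 3 clones, adjusted p = 0.00703), with means of 19.5, 52.5 and 99.6 CPM in #1, #2 and #3. *Ggt1* (chromosome 10, 75561604 to 75586200), the γ-glutamyltransferase that breaks down glutathione outside the cell, had the largest change of the group. It was 0.209, 0.216 and 1.35 CPM in *NRF2* KO, 11.5, 5.23 and 24.2 CPM in LL2 WT and 29.7 to 82.2 CPM (median 40.7) in *KEAP1* KO (log2 6.39, standard error 0.49, limma adjusted p = 7.81e-07). LL2 WT thus lay apart from both, at 0.70 of the way from *NRF2* KO to *KEAP1* KO on the log2 scale. Glutathione synthetase *Gss* and glutathione reductase *Gsr* were each called at a log2 of 1.48. *Ggt7*, a relative of *Ggt1*, was the exception with 1.43, 2.19 and 4.19 CPM in *NRF2* KO and 0.414 to 1.25 CPM (median 0.663) in *KEAP1* KO (log2 −1.64, limma adjusted p = 0.00347), and it lost its call with clone #1 alone (−1.19).

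Of 22 glutathione transferases tested, 10 were higher and none lower, with a median log2 of 0.93. The α class, which conjugates glutathione to lipid peroxidation products and drugs, held the largest changes of all genes named here. *Gsta2* (chromosome 9, 78331018 to 78355788) was listed at 0, 0 and 0.226 CPM in *NRF2* KO, at 0 in LL2 WT, and at 179 to 921 CPM (median 384) in *KEAP1* KO (log2 11.40, limma adjusted p = 9.96e-12). *Gsta1* (chromosome 9, 78230656 to 78242684) did not pass the floor in *NRF2* KO or LL2 WT and was 87.6 to 526 CPM (median 149) in *KEAP1* KO, so its mean was at least 2393-fold higher. The transcripts of these genes share most of their sequence: 92.9% of the 31-base words of *Gsta1* and 60.7% of those of *Gsta2* also occur in transcripts of other genes, so the split between the copies is uncertain. *Gsta3* (chromosome 1, 21240589 to 21265661) was 0.141, 0.0872 and 0.470 CPM in *NRF2* KO, 0.179, 0.0343 and 0.0718 CPM in LL2 WT and 154 to 445 CPM (median 268) in *KEAP1* KO, which is 1121-fold higher in the mean (log2 9.71, adjusted p = 7.72e-11). *Mgst1* (chromosome 6, 138140316 to 138156755), the microsomal form, was 0.115, 0.282 and 0.286 CPM in *NRF2* KO and 163 to 297 CPM (median 198) in *KEAP1* KO (log2 9.37, adjusted p = 3.91e-13). The levels of *Mgst1* in LL2 WT, 5.09, 4.82 and 7.11 CPM, lay between the genotypes, unlike those of *Gsta1*, *Gsta2* and *Gsta3*. *Gsta4* (chromosome 9, 78182774 to 78209349), which acts on 4-hydroxynonenal, was 13.2, 8.74 and 14.8 CPM in *NRF2* KO, 33.9, 25.1 and 34.3 CPM in LL2 WT and 431 to 804 CPM (median 682) in *KEAP1* KO (log2 5.63). The μ-class genes *Gstm1* (log2 3.61), *Gstm6* (1.80) and *Gstm2* (1.42), *Gsta5* (1.95) and *Mgst2* (1.83) were also called. The π-class genes were not: *Gstp1* had a log2 of −0.29 and *Gstp2* of −1.93. Here and below, members given with a log2 fold change alone fall outside the naming rule and were picked after their values were seen.

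To show what the promoters of these genes hold, the core of the antioxidant response element, searched as TGACNNNGC on both strands from 250 bases before to 50 bases after each RefSeq start site (GRCm38.p6), was printed below for 7 genes of glutathione, thioredoxin and NADPH metabolism that were called higher and for 1 collagen gene that was called lower. Capitals mark the match, each sequence is given 5′ to 3′ on the strand of the match, and the 2 sequences of *Gsta3* and *Pgd* share the same 9 letters.
*Gsta3*: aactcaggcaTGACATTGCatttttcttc
*Mgst1*: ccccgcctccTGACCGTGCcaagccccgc
*Gclm*: tcgtgagagtTGACGGTGCgcccgggagc
*Txnrd1*: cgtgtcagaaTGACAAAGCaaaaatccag
*Me1*: gatgccgccgTGACTCAGCgcttctcgcg
*G6pdx*: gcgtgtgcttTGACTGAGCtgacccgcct
*Pgd*: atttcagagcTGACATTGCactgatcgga
*Col6a2*: ccccacccgcTGACCCCGCccatccgcgg
The matches lie at chr1:21240454-21240482 (plus strand) for *Gsta3*, chr6:138140461-138140489 (minus strand) for *Mgst1*, chr3:122245413-122245441 (minus strand) for *Gclm*, chr10:82859104-82859132 (minus strand) for *Txnrd1*, chr9:86695902-86695930 (minus strand) for *Me1*, chrX:74428919-74428947 (plus strand) for *G6pdx*, chr4:149166061-149166089 (minus strand) for *Pgd* and chr10:76623458-76623486 (minus strand) for *Col6a2*. A match was present for 99 of the 534 genes called higher that have a promoter in the RefSeq table (18.5%, 95% Wilson interval 15.5% to 22.1%), for 78 of 493 called lower (15.8%, 12.9% to 19.3%) and for 1692 of all 10126 tested genes with a promoter (16.7%). Among all 27025 genes of the table it was 14.0%. Genes with the largest increases (log2 above 3) held a match in 18 of 93 cases (19.4%, 12.6% to 28.5%), so the share of promoters with these letters in this short window was within its counting interval of the share in all genes tested. *Gclc*, *Slc7a11* and *Nqo1* have no match in the window, which says only that these letters are not in it.

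The group of quinone, carbonyl and aldehyde enzymes was split: 12 of 37 tested were higher, 1 was lower and the median log2 was 0.30. *Nqo1* (chromosome 8, 107388225 to 107403206), the NAD(P)H quinone reductase widely used as a readout of NRF2, was 9.94, 10.96 and 8.55 CPM in *NRF2* KO, 28.3, 36.5 and 26.1 CPM in LL2 WT and 253 to 545 CPM (median 468) in *KEAP1* KO. The 3 groups did not overlap, and the mean of *KEAP1* KO was 42.1-fold that of *NRF2* KO (log2 5.34, standard error 0.11, limma adjusted p = 2.85e-12). Clone #2, with a mean of 276 CPM, was below #1 and #3 (476 and 488 CPM), and the clones differed (adjusted p of the F test 0.00215). *Cbr3* (chromosome 16, 93683215 to 93690990), a carbonyl reductase, followed the same order with 1.14, 1.23 and 0.769 CPM in *NRF2* KO, 3.66, 5.82 and 3.47 CPM in LL2 WT and 31.6 to 68.4 CPM (median 43.2) in *KEAP1* KO (log2 5.34, adjusted p = 2.97e-10). *Aldh3a1* (chromosome 11, 61207537 to 61218421), an aldehyde dehydrogenase, did not pass the floor in *NRF2* KO (0, 0.0706 and 0.0242 CPM) and was 14.4 to 84.6 CPM (median 34.6) in *KEAP1* KO, at least 341-fold higher. *Akr1c18*, a hydroxysteroid dehydrogenase of the aldo-keto reductase family, was likewise at or under the floor in *NRF2* KO and 4.24 to 7.11 CPM (median 5.34) in *KEAP1* KO, at least 55.5-fold higher (log2 5.41, adjusted p = 1.52e-08). Other members called higher included *Adh7* (log2 2.70), *Ephx1* (2.09), *Aldh1a1* (2.07) and *Cbr1* (1.36). *Aldh18a1*, which acts in proline synthesis rather than in detoxification, was the member that fell, from 129, 117 and 178 CPM to 49.2 to 87.0 CPM (median 61.9) (log2 −1.15, adjusted p = 0.00122), and it was not called without *NRF2* KO replicate 3 (−0.97).

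Thioredoxin and peroxiredoxin genes changed less: 2 of 14 were higher, none was lower and the median log2 was 0.37. *Txnrd1* (chromosome 10, 82833951 to 82897712), the cytosolic thioredoxin reductase, was 126, 143 and 92.8 CPM in *NRF2* KO, 151, 175 and 144 CPM in LL2 WT and 406 to 633 CPM (median 578) in *KEAP1* KO (log2 2.18, limma adjusted p = 9.87e-09). *Prdx6* had a log2 of 1.14 (adjusted p = 2.53e-06), and thioredoxin itself (*Txn1*, 0.77) and sulfiredoxin (*Srxn1*, 0.68) stayed under the fold required for a call. Of the 7 glutathione peroxidases, catalase and superoxide dismutases, 1 was called: *Sod1* was 304, 282 and 256 CPM in *NRF2* KO and 494 to 655 CPM (median 608) in *KEAP1* KO (log2 1.06), and it fell just under the required fold without *NRF2* KO replicate 3 (0.99) and with quantile normalization (0.97).

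Of 15 genes for NADPH production, 4 were higher and none lower, with a median log2 of 0.09. The 4 belong to malic enzyme and the pentose phosphate pathway. *Me1* (chromosome 9, 86581371 to 86695953), the cytosolic malic enzyme, was 24.0, 25.02 and 18.5 CPM in *NRF2* KO, 44.8, 49.8 and 45.3 CPM in LL2 WT and 122 to 155 CPM (median 132) in *KEAP1* KO, and the 3 groups did not overlap (log2 2.58, standard error 0.085, limma adjusted p = 2.84e-10). *G6pdx* (chromosome X, 74409483 to 74429194), the entry enzyme of the pentose phosphate pathway, showed the same order at 51.4, 52.5 and 52.95 CPM, 84.2, 81.8 and 61.9 CPM and 139.6 to 255 CPM (median 176) (log2 1.84, adjusted p = 6.46e-08). For *Taldo1*, transaldolase, and *Pgd*, the 6-phosphogluconate dehydrogenase, the log2 fold changes were 1.45 and 1.24, with all *KEAP1* KO samples above all *NRF2* KO samples. *Tkt* (0.53) and *Idh1* (0.73) were not called. *Pgd* lost its call with clone #1 alone (0.98).

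Among 16 heme and iron genes, 5 were higher and none lower, with a median log2 of 0.84. *Blvrb* (chromosome 7, 27447978 to 27466144), a biliverdin and flavin reductase, was 9.31, 5.69 and 13.3 CPM in *NRF2* KO, 23.9, 15.2 and 38.1 CPM in LL2 WT and 171 to 251 CPM (median 224) in *KEAP1* KO, 23.7-fold higher in the mean (log2 4.63, limma adjusted p = 2.89e-08). *Abcb6*, a porphyrin transporter, was 10.9, 10.6 and 10.9 CPM in *NRF2* KO and 51.4 to 63.0 CPM (median 60.6) in *KEAP1* KO (log2 2.43, adjusted p = 1.06e-09), with LL2 WT between them at 23.1, 20.9 and 15.8 CPM. *Slc48a1*, a heme transporter, differed by 2.02 in log2, and its LL2 WT samples (67.2, 60.9 and 78.6 CPM) reached those of clone #1 (mean 74.7 CPM). The ferritin light chain gene *Ftl1*, which stores iron, was 1912, 2099 and 1769.9 CPM in *NRF2* KO, 3445, 3329.8 and 3366 CPM in LL2 WT and 4821 to 7065 CPM (median 6289.6) in *KEAP1* KO (log2 1.62, adjusted p = 1.7e-07), although 64.1% of its 31-base words occur in other transcripts as well. The heavy chain gene *Fth1* had a log2 of −0.13 and heme oxygenase *Hmox1* one of 0.88, and neither is called.

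Conjugation and export genes had a median log2 of 1.19, with 9 of 15 higher and none lower. *Ugt1a6a* (chromosome 1, 88134809 to 88218997), a UDP-glucuronosyltransferase that makes drugs water-soluble, was 15.5 to 45.0 CPM (median 27.4) in *KEAP1* KO and 2.21, 1.51 and 5.16 CPM in LL2 WT, while 1 of the *NRF2* KO samples reached 0.133 CPM and the others were near 0 (log2 7.80, limma adjusted p = 2.5e-09). *Ugt1a7c* (log2 3.87) and *Ugt1a6b* (2.64) share their last exons with it, and 55.7% and 84.2% of their 31-base words occur in other genes, so these are not independent measurements. *Abcc4* (chromosome 14, 118482692 to 118706219), the export pump MRP4, was 17.1, 19.0 and 19.5 CPM in *NRF2* KO, 20.7, 21.4 and 20.3 CPM in LL2 WT and 65.1 to 94.9 CPM (median 87.4) in *KEAP1* KO (log2 2.17, adjusted p = 2.84e-10). Its relatives *Abcc2* (2.00), *Abcc3* (1.95) and *Abcc1* (1.19) and the P-glycoprotein genes *Abcb1a* (1.43) and *Abcb1b* (1.07) were also called, whereas *Abcg2* was not (−0.82). Of 5 genes of the aryl hydrocarbon receptor, another sensor of foreign compounds, the receptor *Ahr* itself was 1.97, 2.77 and 2.34 CPM in *NRF2* KO and 11.1 to 26.5 CPM (median 14.1) in *KEAP1* KO (log2 2.65, adjusted p = 6.5e-07). Its target *Cyp1a1* was listed at 0 in all *NRF2* KO samples and was 2.45 to 7.92 CPM (median 6.38) in *KEAP1* KO, while the targets *Ahrr* (0.16) and *Tiparp* (−0.67) were not called.

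**Figure D2:**
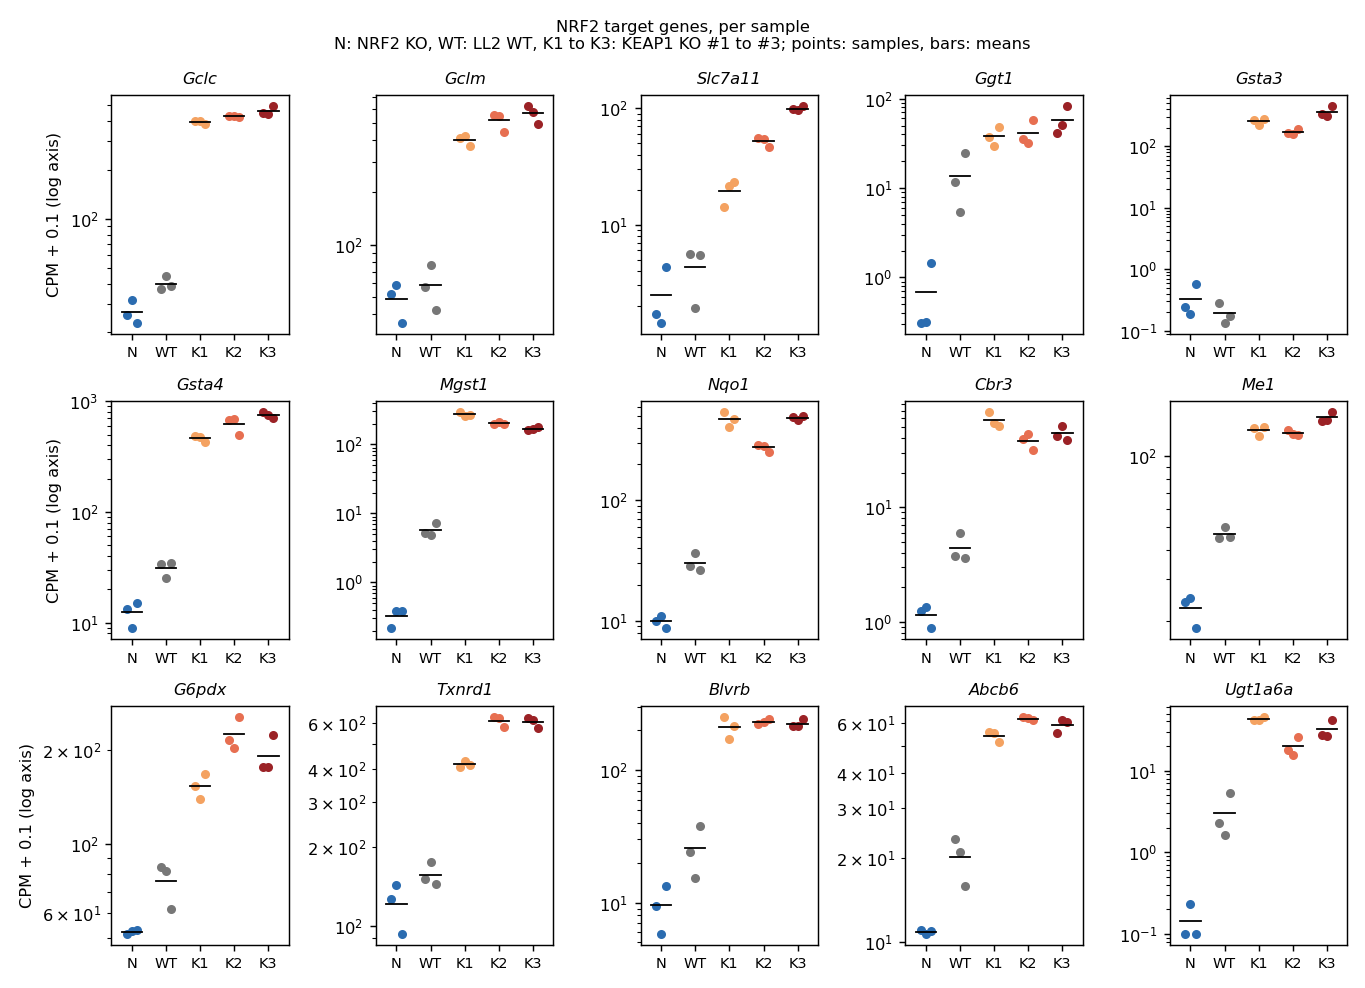
CPM plus 0.1 (y axes, log scale, each with its own range) of 15 antioxidant and detoxification genes in the 3 samples of *NRF2* KO (N), LL2 WT and *KEAP1* KO #1 to #3 (K1 to K3); points are samples and bars are the mean of a line. In every panel the *KEAP1* KO samples stand above the *NRF2* KO samples, and LL2 WT stands near *NRF2* KO for *Gclm* and *Gsta3* and well above it for *Ggt1*, *Mgst1* and *Ugt1a6a*.

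Of 14 genes of the system that controls NRF2, 3 were higher, against 5.19% of all genes tested, 1 (*Keap1*) was lower, and the median log2 was 0.29. At an adjusted p under 0.05 and any fold, 6 were higher, against 13.6% of all genes tested. *Sqstm1* (chromosome 11, 50199366 to 50210827), which encodes p62, an autophagy receptor that binds KEAP1, was 229.9, 244 and 329.8 CPM in *NRF2* KO, 341, 303 and 361 CPM in LL2 WT and 570.3 to 719 CPM (median 654) in *KEAP1* KO (log2 1.28, limma adjusted p = 8.23e-07). *Bach1*, a repressor that competes with NRF2 for its sites, was 8.49, 8.19 and 12.5 CPM in *NRF2* KO and 17.0 to 23.01 CPM (median 18.7) in *KEAP1* KO, which is just past the required fold (1.00). The call of *Bach1* was lost without *KEAP1* KO #1 replicate 3 (0.97), *KEAP1* KO #2 replicate 3 (0.99), *KEAP1* KO #3 replicate 3 (0.97), *NRF2* KO replicate 1 (0.92) or replicate 2 (0.89). *Nfe2l3*, a relative of *Nfe2l2*, had a log2 of 1.34, and the small MAF genes *Mafg* (0.78), *Mafk* (0.66) and *Maff* (0.27) were not called. Of 32 genes of the constitutive proteasome, which degrades ubiquitinated proteins, none was called by limma, and 10 had an unadjusted p under 0.05, against 37.2% of all genes tested. The log2 values of all 32 lay above 0, between 0.01 and 0.82, with a median of 0.25, and 4 (*Psma5* and *Psmd11* among them) passed an adjusted p of 0.05 at a smaller fold, against 13.6% of all genes tested on the higher side.

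**Figure D3:**
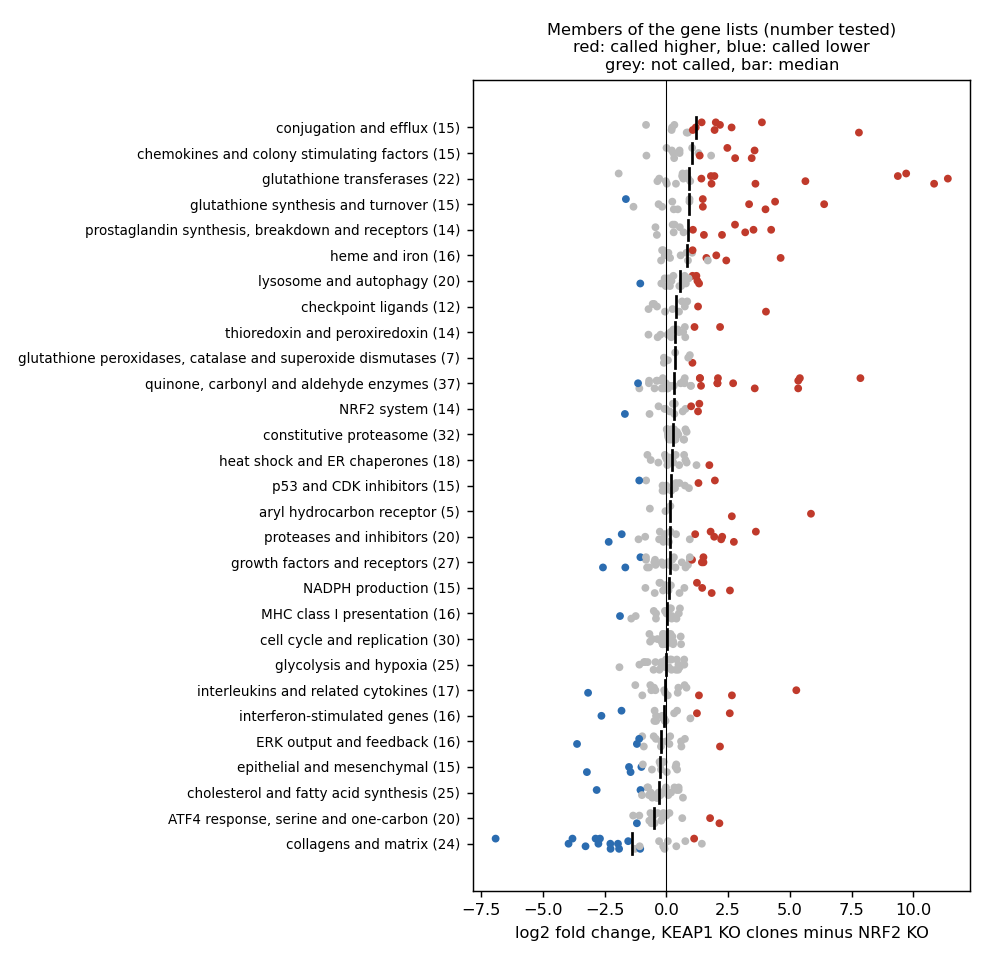
Log2 fold change of *KEAP1* KO over *NRF2* KO (x axis) for the members of 29 gene lists (y axis, with the number tested), ordered by their median (black bars). Red points were called higher, blue points lower and grey points not called; conjugation and export genes are at the top and collagens and matrix genes, with 13 of 24 lower, at the bottom.

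Genes for signals between tumor and immune cells address the question of the study, how *KEAP1*-mutant tumors shape their immune environment. Of 14 genes for prostaglandin synthesis, breakdown and response, 7 were higher, none was lower and the median log2 was 0.89. *Ptgs2* (chromosome 1, 150100031 to 150108227), the inducible cyclooxygenase COX-2, was 8.05, 13.1 and 11.04 CPM in *NRF2* KO, 16.4, 21.2 and 58.9 CPM in LL2 WT and 124 to 260.1 CPM (median 216) in *KEAP1* KO. The *KEAP1* KO samples lay above all others, 19.2-fold above *NRF2* KO in the mean (log2 4.24, standard error 0.30, limma adjusted p = 3.43e-07). The phospholipases that free arachidonic acid moved the same way: *Pla2g4a* had a log2 of 2.25, *Pla2g2d* of 3.53 and *Pla2g5* of 2.78. *Pla2g2d* was low, at 0.0907, 0.0400 and 0.114 CPM in *NRF2* KO and 0.325 to 5.19 CPM (median 3.24) in *KEAP1* KO, and its clones differed (means 0.551, 4.48 and 3.06 CPM, adjusted p of the F test 0.000191). *Slco2a1*, a prostaglandin transporter (1.08), and thromboxane synthase *Tbxas1* (1.52) were also called. *Ptgir*, the prostacyclin receptor, did not pass the floor in *NRF2* KO and was 0.203 to 4.605 CPM (median 1.07) in *KEAP1* KO, at least 16.1-fold higher. The terminal synthases of prostaglandin E2, *Ptges* (0.33), *Ptges2* (0.30) and *Ptges3* (0.55), and the constitutive cyclooxygenase *Ptgs1* (−0.38) were not called. *Pla2g5* lost its call with clone #1 alone (1.43).

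Chemokines were low in this line but leaned upward: 5 of 15 chemokine and colony stimulating factor genes tested were higher, none was lower and the median log2 was 1.04. *Cxcl1* (chromosome 5, 90891241 to 90893115), which recruits neutrophils through CXCR2, was 2.996, 1.92 and 8.80 CPM in *NRF2* KO, 5.66, 3.78 and 18.3 CPM in LL2 WT and 14.6 to 68.6 CPM (median 28.8) in *KEAP1* KO. Its *KEAP1* KO samples did not overlap with *NRF2* KO but did with LL2 WT replicate 3 (log2 2.78, standard error 0.55, limma adjusted p = 0.00218). Replicate 3 was the highest *Cxcl1* sample in every line, at 38.4, 42.6 and 68.6 CPM in *KEAP1* KO #1, #2 and #3 against 18.3 CPM in LL2 WT. It was also the highest sample of every line for *Cxcl5* and *Cxcl15*, but not for *Ccl20*. *Ccl20*, a ligand of CCR6, was 0, 0 and 0.193 CPM in *NRF2* KO and 0.742 to 2.94 CPM (median 1.44) in *KEAP1* KO (log2 3.46, adjusted p = 7.46e-05). *Cxcl15* did not pass the floor in *NRF2* KO, was 0.398, 0.382 and 3.65 CPM in LL2 WT and spread widely in *KEAP1* KO, 0.215 to 11.01 CPM (median 1.0001) (log2 3.57, adjusted p = 0.00605). *Cxcl5*, another CXCR2 ligand, overlapped between the genotypes (0.0614, 0 and 0.216 CPM and 0.189 to 4.79 CPM (median 0.982), log2 2.47, adjusted p = 0.00453). The monocyte attractant *Ccl2* (0.28) and *Csf1* (0.22), a macrophage growth factor, were not called. *Cxcl15* and *Cxcl5* lost their calls with a pseudocount of 1 CPM (1.46 and 0.89). The means of clones #1, #2 and #3 were 4.02, 0.486 and 4.40 CPM for *Cxcl15* and 0.487, 0.805 and 2.58 CPM for *Cxcl5*. *Cxcl15* was also not called with clone #2 alone, nor *Cxcl5* with clone #1 alone. Beside these counts, the summed CPM of 11 leukocyte markers was 5.92 to 39.0 in *KEAP1* KO and 3.96 to 6.11 in *NRF2* KO, carried by *Cd68* (log2 2.22), which encodes a lysosomal protein, while *Adgre1* was at 0 in every sample and *Lyz2* was lower (log2 −3.46). *Ly6g* (log2 1.68) was higher in clones #2 and #3 only, its sign turned with clone #1 alone (−0.60), and the call was lost without *NRF2* KO replicate 2 (1.34). The part of other cells in the chemokine result was not tested.

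Of 17 interleukins and related cytokines, 3 were higher and 1 lower, with a median log2 of −0.05. *Il7* (chromosome 3, 7569994 to 7613760), a survival factor of lymphocytes, was 0.0953, 0.0609 and 0.179 CPM in *NRF2* KO, 0.0304, 0.0505 and 0.0601 CPM in LL2 WT and 2.45 to 15.3 CPM (median 11.8) in *KEAP1* KO (log2 5.26, limma adjusted p = 6.66e-10). Clone #1, at a mean of 2.97 CPM, stood below #2 and #3 at 11.95 and 13.6 CPM (adjusted p of the F test 0.000114). *Il15*, a growth factor of NK and T cells, moved the other way: it was 1.98, 1.28 and 1.199 CPM in *NRF2* KO, 0 in all samples of clones #2 and #3 and 0.485 CPM in the mean of clone #1 (log2 −3.17, adjusted p = 0.000278). *Il1rn*, the antagonist of the interleukin 1 receptor, and *Clcf1*, a cytokine of the IL-6 family, had log2 values of 2.65 and 1.32, and the *KEAP1* KO samples of each lay above those of *NRF2* KO. With clone #1 alone *Il15* (−1.60), *Clcf1* (0.63) and *Il1rn* were not called.

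Among 12 ligands of immune checkpoints, 2 were called, both higher, with a median log2 of 0.38. *Nt5e* (chromosome 9, 88327197 to 88372092), which encodes CD73, the ecto-enzyme that makes adenosine, was 0.310, 0.594 and 0.937 CPM in *NRF2* KO, 0.319, 0.296 and 0.424 CPM in LL2 WT and 8.39 to 15.8 CPM (median 10.29) in *KEAP1* KO, 18.0-fold higher in the mean (log2 4.03, limma adjusted p = 7.61e-08). Its clones were alike in level, with means of 8.97, 12.18 and 11.96 CPM. *Entpd1*, the enzyme upstream of it, had a log2 of −0.38, and *Cd274*, which encodes PD-L1, one of 0.51, and neither is called. *Cd80* was 1.07, 3.44 and 1.35 CPM in *NRF2* KO and 3.35 to 5.57 CPM (median 4.21) in *KEAP1* KO (log2 1.28, adjusted p = 0.00942), the groups overlapped, and the call was lost without *NRF2* KO replicate 1 (0.96) or replicate 3 (1.12). Of 16 genes of MHC class I presentation, 1 was called, against 9.94% of all genes tested. This was the non-classical *H2-M3*, which was lower (log2 −1.88, limma adjusted p = 0.00174) with 1 sample of clone #1 overlapping *NRF2* KO. The classical gene *H2-K1* (−1.42) was not called, and *H2-D1* (0.50), *B2m* (−0.06), *Tap1* (−0.42) and *Tap2* (0.01) were not either. Interferon-stimulated genes were mixed, with 2 of 16 higher, 2 lower and a median of −0.11. *Ifit2* was 17.3, 15.2 and 19.3 CPM in *NRF2* KO and had means of 9.90, 1.43 and 1.45 CPM in *KEAP1* KO #1, #2 and #3 (log2 −2.63, adjusted p = 1.34e-06), *Ifit3* followed it (−1.82), and *Rsad2* (2.57) and *Gbp3* (1.24) were higher. *Ifit2* and *H2-M3* were not called with clone #1 alone (−0.83 and −0.92).

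The genes that fell were led by the extracellular matrix. Of 24 collagens and other matrix genes tested, 13 were lower and 1 was higher, and the median log2 was −1.41. *Col3a1* (chromosome 1, 45311538 to 45349706), a fibrillar collagen, was 366, 177 and 411 CPM in *NRF2* KO, 436, 309.7 and 563 CPM in LL2 WT and 0.129 to 15.7 CPM (median 2.96) in *KEAP1* KO, 57.0-fold lower in the mean (log2 −6.91, standard error 0.45, limma adjusted p = 1.49e-07). The clone means were 12.4, 4.04 and 0.325 CPM, all far below *NRF2* KO, and they differed among themselves (adjusted p of the F test 0.000206). *Col8a1* was 2.86, 2.198 and 3.51 CPM in *NRF2* KO and 0.00649 to 0.337 CPM (median 0.0677) in *KEAP1* KO (log2 −3.96, adjusted p = 3.86e-06). The collagen VI genes *Col6a1* and *Col6a2* (chromosome 10, 76595762 to 76623630) lie close together on this chromosome and showed the clones apart. *Col6a2* was 10.28, 5.20 and 12.9 CPM in *NRF2* KO and had means of 13.0, 0.131 and 0.246 CPM in clones #1, #2 and #3, so the mean of clone #1 lay above that of *NRF2* KO, and the fold change over all clones (log2 −3.27, adjusted p = 9.24e-05) turned in sign with clone #1 alone (0.31). *Fbn1* (−2.75), *Bgn* (−2.69), *Sparc* (−2.27), *Fn1* (−2.26) and *Col1a2* (−1.96) were also called lower. The basement membrane collagens *Col4a1* (−0.09) and *Col4a2* (0.06) were not called. *Col12a1* was the member that was higher (0.286, 0.547 and 0.350 CPM and 0.374 to 2.29 CPM (median 1.04), log2 1.13, adjusted p = 0.0145), and the call was lost without *NRF2* KO replicate 1 (0.96) or replicate 3 (1.07). Beside this group, the summed CPM of 9 fibroblast markers, of which *Col3a1* makes up the larger share in *NRF2* KO, was 3.64 to 34.9 in *KEAP1* KO, 184 to 423 in *NRF2* KO and 319 to 585 in LL2 WT, and 3 of the 8 tested were lower. *Pdgfra* (−0.19) and *Thy1* (−0.16) of the same list were not called, and the part of other cells in the result was not tested.

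Of 25 listed epithelial and mesenchymal genes, 15 were tested, of which 4 were lower and none was higher. All 4 belong to the mesenchymal side. The epithelial genes *Epcam* and *Cdh1* did not exceed 0.0618 CPM in any sample, too low for a fall to be called, so the counts do not compare the sides. *Snai2* (chromosome 16, 14705852 to 14709385), which encodes the transcription factor SLUG, was 37.3, 46.7 and 63.1 CPM in *NRF2* KO, 37.8, 33.4 and 42.6 CPM in LL2 WT and 1.67 to 15.8 CPM (median 3.73) in *KEAP1* KO (log2 −3.22, limma adjusted p = 5.61e-08). *Twist1*, another such factor, was 65.0, 62.7 and 76.7 CPM in *NRF2* KO and 14.8 to 45.8 CPM (median 19.98) in *KEAP1* KO (log2 −1.51, adjusted p = 8.83e-06). For both, clone #1 was the highest of the 3 clones, with means of 14.6 and 39.8 CPM. *Vim*, the vimentin gene, was 3279, 3129.8 and 4289 CPM in *NRF2* KO and 1534 to 2029 CPM (median 1644) in *KEAP1* KO, a log2 of −1.01 that is barely past the required fold. The call of *Vim* was lost without *KEAP1* KO #1 replicate 2 (−0.98), *KEAP1* KO #2 replicate 2 (−0.99), *KEAP1* KO #3 replicate 1 (−0.996), replicate 2 (−0.99) or *NRF2* KO replicate 3 (−0.87). *Cdh2*, which encodes N-cadherin, was 9.73, 10.5 and 11.04 CPM in *NRF2* KO and had means of 10.8, 0.351 and 11.7 CPM, so it was low in clone #2 only. Its call (log2 −1.45) reversed in sign with clone #1 or #3 alone (0.06 and 0.17). *Zeb1* (−0.24), *Zeb2* (0.44) and *Snai1* (−0.23) were not called, nor were *Krt8* (0.40) and *Krt18* (0.02).

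Proteases went in both directions: 7 of 20 proteases and inhibitors were higher and 2 were lower. The 2 plasminogen activators were the ones that fell. *Plat* was 28.3, 18.4 and 42.2 CPM in *NRF2* KO, 36.4, 30.9 and 40.2 CPM in LL2 WT and 3.60 to 10.26 CPM (median 4.85) in *KEAP1* KO (log2 −2.33, limma adjusted p = 4.62e-05), and *Plau* was 80.3, 50.6 and 194 CPM, 183, 88.2 and 361 CPM and 17.9 to 33.2 CPM (median 29.8) (log2 −1.81, adjusted p = 0.00466). *Plaur*, which encodes the receptor of the *Plau* product, was higher (1.94). *Mmp10*, a stromelysin, was 0.853, 1.32 and 0.788 CPM in *NRF2* KO and 2.75 to 28.1 CPM (median 17.7) in *KEAP1* KO (log2 3.62, adjusted p = 1.93e-06), and the collagenase *Mmp13* (2.73) and gelatinase *Mmp9* (2.26) were also called. The tissue inhibitors *Timp1* (−0.08), *Timp2* (−0.26) and *Timp3* (−0.29) were not called. *Mmp9* lost its call with a pseudocount of 1 CPM and with clone #1 alone, and *Mmp13* lost its call with clone #2 alone.

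Growth factor genes were mixed as well, with 4 of 27 higher and 3 lower. *Egfr* (chromosome 11, 16752203 to 16918158) was 1.97, 2.88 and 3.54 CPM in *NRF2* KO, 3.69, 4.996 and 6.16 CPM in LL2 WT and 0.162 to 0.916 CPM (median 0.310) in *KEAP1* KO, 6.73-fold lower (log2 −2.57, limma adjusted p = 5.48e-05). Of its ligands, *Btc* was called higher (log2 1.501), although the call was lost without *NRF2* KO replicate 1 (1.16) or replicate 2 (1.31), and *Areg* (0.87) and *Ereg* (0.95) were not. *Jag1*, a Notch ligand, was 1.15, 1.26 and 2.07 CPM in *NRF2* KO and 3.001 to 5.47 CPM (median 4.79) in *KEAP1* KO (log2 1.503, adjusted p = 0.000163). *Hgf*, low throughout, did not pass the floor in *KEAP1* KO and was at least 3.24-fold lower. *Pdgfrb* was 0.499, 0.907 and 0.752 CPM in *NRF2* KO with clone means of 4.21, 0.0139 and 0.0347 CPM, so #1 lay above and #2 and #3 below, and its mean log2 of −1.05 turned to 2.26 with clone #1 alone and to 0.01 with a pseudocount of 1 CPM. The call of *Pdgfrb* was lost without *KEAP1* KO #1 replicate 2 (−0.90), *KEAP1* KO #2 replicate 1 (−1.02), replicate 2 (−1.02), *KEAP1* KO #3 replicate 2 (−1.01), *NRF2* KO replicate 2 (−0.89) or replicate 3 (−1.01). Among 16 genes of ERK output and feedback, 3 were lower and 1 higher. *Spry1*, a feedback inhibitor of receptor kinases, was 3.16, 1.19 and 5.22 CPM in *NRF2* KO and 0.0134 to 0.952 CPM (median 0.0612) in *KEAP1* KO (log2 −3.62, adjusted p = 4.3e-05), whereas the phosphatase gene *Dusp4* was 25.1, 36.0 and 39.8 CPM and 116 to 176 CPM (median 152) (log2 2.17, adjusted p = 1.04e-07). *Dusp6* (−0.98), *Fosl1* (0.60) and *Myc* (0.61) were not called. The weaker calls of *Spry2* (log2 −1.10) and *Etv1* (−1.19) did not hold when single libraries were left out. That of *Spry2* was lost without *NRF2* KO replicate 3 (−0.78), and that of *Etv1* was lost without *NRF2* KO replicate 1 (−1.24) or replicate 3 (−0.87). Without replicate 1 the fold of *Etv1* did not shrink, and its limma adjusted p was 0.0662.

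**Figure D4:**
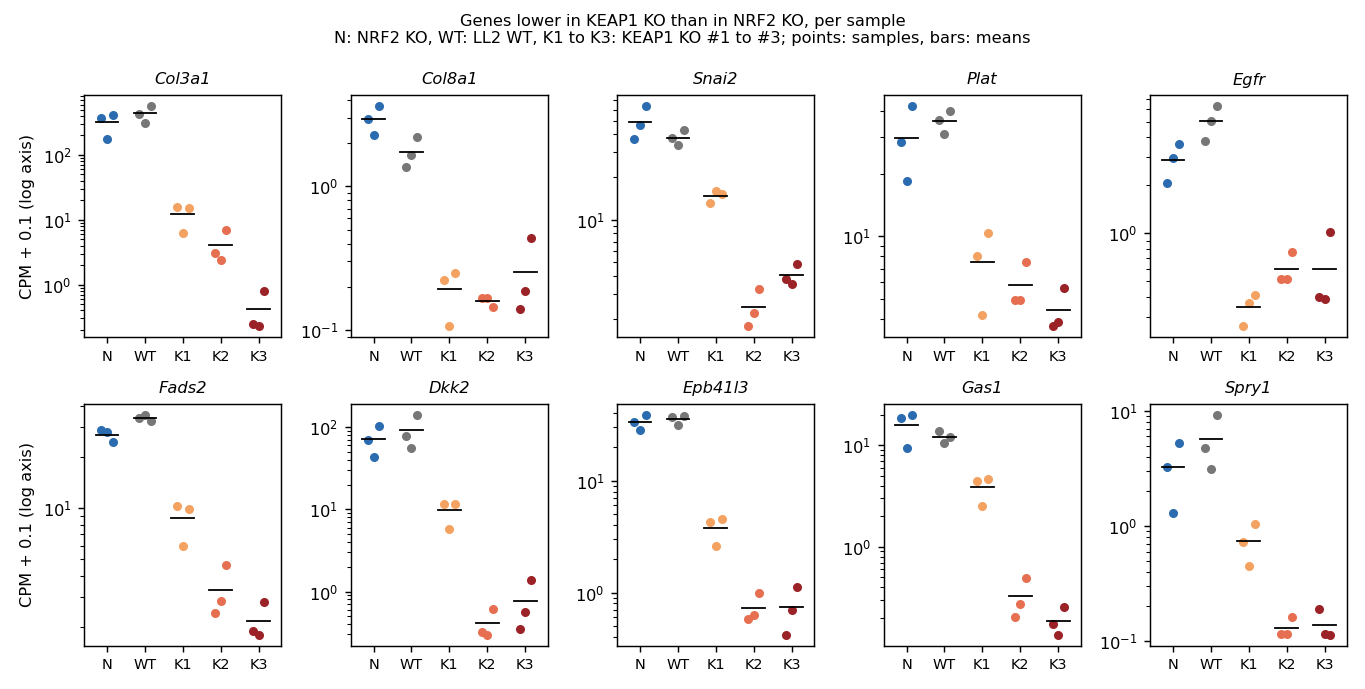
CPM plus 0.1 (y axes, log scale, each with its own range) of 10 genes called lower in *KEAP1* KO, in the 3 samples of *NRF2* KO (N), LL2 WT and *KEAP1* KO #1 to #3 (K1 to K3); points are samples and bars the mean of a line. LL2 WT stands near *NRF2* KO in each panel, and clone #1 lies above #2 and #3 for *Snai2*, *Fads2*, *Dkk2*, *Epb41l3*, *Gas1* and *Spry1*.

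Of 25 glycolysis and hypoxia genes and 30 cell cycle and replication genes, none was called by limma. Their medians were −0.03 and 0.02, and 1 and 6 of them had an unadjusted p under 0.05, against 37.2% of all genes tested. Of 25 genes for cholesterol and fatty acid synthesis, 2 were lower, 7 were lower at an adjusted p under 0.05 and any fold, against 1803 of all 14652 genes tested, and the median was −0.31. *Fads2* (chromosome 19, 10062765 to 10101746), the Δ6 desaturase of polyunsaturated fatty acids, was 29.0, 28.0 and 24.4 CPM in *NRF2* KO, 34.2, 35.4 and 32.6 CPM in LL2 WT and 1.69 to 10.204 CPM (median 2.74) in *KEAP1* KO (log2 −2.82, limma adjusted p = 6.4e-07). *Insig1*, a brake on sterol synthesis, had a log2 of −1.05, and the call was lost without *KEAP1* KO #1 replicate 2 (−0.98), *NRF2* KO replicate 1 (−0.95) or replicate 2 (−0.96). The ATF4 response and serine metabolism had a median of −0.49, with 2 of 20 genes higher and 1 lower, and 8 lower at any fold. *Asns*, asparagine synthetase, was 354, 311 and 476 CPM in *NRF2* KO, 418, 231 and 352 CPM in LL2 WT and 128 to 229 CPM (median 166) in *KEAP1* KO (log2 −1.19, adjusted p = 0.000244). The stress genes *Atf3* (log2 1.77, limma adjusted p = 0.00399) and *Gdf15* (2.15, adjusted p = 0.00643) went against it. The call of *Gdf15* was lost without *NRF2* KO replicate 1 (1.69), with clone #1 alone and with a pseudocount of 1 CPM. That of *Atf3* was lost with clone #2 alone. *Atf4* (−0.48), *Phgdh* (−0.15) and *Psat1* (−0.64) were not called.

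Lysosomal and autophagy genes had 4 of 20 higher, 1 lower and a median of 0.56, and 11 passed an adjusted p of 0.05 on the higher side at any fold, against 13.6% of all genes tested. *Ctsd*, the protease cathepsin D, was 151, 179 and 160.4 CPM in *NRF2* KO, 171, 193 and 183 CPM in LL2 WT and 268 to 528 CPM (median 461) in *KEAP1* KO (log2 1.32, limma adjusted p = 3.15e-08). *Hexa*, a subunit of β-hexosaminidase, was 45.6, 43.5 and 47.2 CPM and 83.9 to 113 CPM (median 109) (log2 1.22, adjusted p = 1.22e-07). *Ctsb* (log2 1.06) and *Tfeb* (1.26), the latter a transcription factor of lysosomal genes, completed the group, and their *KEAP1* KO samples lay above those of *NRF2* KO. With clone #1 alone *Ctsd* (0.81) and *Ctsb* (0.82) lost their calls, as did *Tfeb* with a pseudocount of 1 CPM (0.88), and the clones differed for *Ctsd* (limma F test, adjusted p = 0.000111). *Wipi1* was the member that was lower (log2 −1.06), and the call was lost without *KEAP1* KO #1 replicate 2 (−0.96), *KEAP1* KO #2 replicate 2 (−0.998), *NRF2* KO replicate 1 (−1.14) or replicate 3 (−0.78). Heat shock and chaperone genes had 1 of 18 called, against 9.94% of all genes tested. This was *Hspa1b* (log2 1.74), 68.1% of whose 31-base words are shared, mainly with *Hspa1a*. Of 15 p53 targets and CDK inhibitors, *Perp* (1.97) and *Trp53inp1* (1.3003) were higher and *Sesn1* (−1.10) was lower. The call of *Trp53inp1* was lost without *NRF2* KO replicate 1 (0.96), and that of *Sesn1* was lost without *NRF2* KO replicate 3 (−0.90).

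The largest differences outside these lists included genes with no known place in oxidant defense. *Krt76* (chromosome 15, 101884351 to 101892920), a keratin of stratified epithelium, was listed at 0 in *NRF2* KO, was at most 0.114 CPM in LL2 WT and was 7.66 to 62.9 CPM (median 35.2) in *KEAP1* KO (log2 8.02, limma adjusted p = 2.2e-11). *Selp* (chromosome 1, 164115264 to 164150026), which encodes P-selectin, an adhesion receptor known from platelets and endothelium, was 0.127, 0.598 and 0.290 CPM in *NRF2* KO, 0.272, 0.220 and 0.0949 CPM in LL2 WT and 11.8 to 89.4 CPM (median 50.6) in *KEAP1* KO (156-fold, log2 6.78, adjusted p = 3.79e-09). *Prl2c2*, a placental hormone of the proliferin family, was 1.29, 2.07 and 0.178 CPM in *NRF2* KO and 23.3 to 1444 CPM (median 290.4) in *KEAP1* KO (log2 7.85), and its near copy *Prl2c3* (log2 7.39) cannot be separated from it with certainty, since 89.8% and 67.0% of their 31-base words are shared. The clones differed for *Krt76* (means 10.7, 55.8 and 30.9 CPM), *Selp* (18.8, 54.4 and 84.9 CPM) and *Prl2c2* (52.8, 226 and 1174 CPM), with clone #1 the lowest of each. In terms of transcript share, *Esd* (chromosome 14, 74732297 to 74750765), the S-formylglutathione hydrolase that clears formaldehyde adducts of glutathione, was 290.0, 268 and 210.5 CPM in *NRF2* KO, 647, 626 and 671 CPM in LL2 WT and 1452 to 2713 CPM (median 2025) in *KEAP1* KO (log2 2.99, adjusted p = 8.76e-11). *Pgrmc1* (chromosome X, 36598206 to 36606079), a heme-binding membrane protein, was 87.0, 95.2 and 102 CPM, 93.7, 87.6 and 117 CPM and 431 to 855 CPM (median 636) in the same order (log2 2.73, adjusted p = 9.81e-09), so LL2 WT and *NRF2* KO lay together. *Gm10925* (log2 1.16) is a nuclear copy of a mitochondrial gene, all its 31-base words are shared with *mt-Atp6*, and the call was lost without *NRF2* KO replicate 1 (1.04) or replicate 3 (1.03).

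On the lower side, the largest differences included receptor and signaling genes. *Adcyap1r1* (chromosome 6, 55451978 to 55501451), the receptor of the neuropeptide PACAP, was 6.61, 6.18 and 5.84 CPM in *NRF2* KO, 8.01, 7.62 and 7.80 CPM in LL2 WT and 0 to 0.108 CPM (median 0.00929) in *KEAP1* KO (log2 −5.62, limma adjusted p = 1.65e-09). *Pde4b*, a phosphodiesterase of cyclic AMP, which is made downstream of that receptor, was 7.59, 4.21 and 8.02 CPM and 0.0128 to 0.431 CPM (median 0.112) (log2 −4.94, adjusted p = 3.56e-07). *Dkk2* (chromosome 3, 132085292 to 132180304), a modulator of Wnt signaling, was 69.4, 43.8 and 104 CPM in *NRF2* KO and 0.197 to 11.6 CPM (median 0.521) in *KEAP1* KO (log2 −5.69, adjusted p = 5.78e-07). The membrane skeleton gene *Epb41l3* (log2 −4.77), the guidance cue *Sema3f* (−4.78), *Tmem119* (−4.77), the Hedgehog co-receptor *Gas1* (−4.69), *Tenm4* (−4.61) and *Clec2d* (−4.48) completed the set, and none of them overlapped between the genotypes. In *Dkk2*, *Epb41l3*, *Gas1*, *Sema3f* and *Tmem119* clone #1 had more RNA than #2 and #3, for example 9.62 CPM against 0.313 and 0.660 CPM for *Dkk2*. LL2 WT was at the *NRF2* KO end for these genes, with places between −0.11 (*Pde4b*) and 0.15 (*Sema3f*) on a scale explained next.

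LL2 WT was placed between the genotypes on the log2 scale, where 0 is the *NRF2* KO mean and 1 the *KEAP1* KO mean. This is a description without a test, since the genes were chosen by the distance between these ends. For the 761 genes called higher the median place was 0.07 (quartiles −0.08 to 0.29), and LL2 WT was nearer to *NRF2* KO for 668 of them (87.8%). For the 696 called lower it was −0.04 (−0.21 to 0.15) and 644 (92.5%). LL2 WT lay strictly between the samples of both genotypes for 66 of the genes called higher and 27 of those called lower. Of the 49 genes called higher in the 8 lists of antioxidant and detoxification genes, it did so for 15, and the median place was 0.20, while it did so for 51 of the other 712, with a median of 0.06. The genes strictly between included *Gclc* (place 0.15), *Nqo1* (0.30), *Cbr3* (0.36), *Me1* (0.41), *Mgst1* (0.44), *Gsta4* (0.24), *Blvrb* (0.31), *Ftl1* (0.50) and *Esd* (0.45). *Gsta3* (−0.07), *Gclm* (0.08), *Pgrmc1* (0.02) and *Nt5e* (−0.15) had LL2 WT at the *NRF2* KO end.

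**Figure D5:**
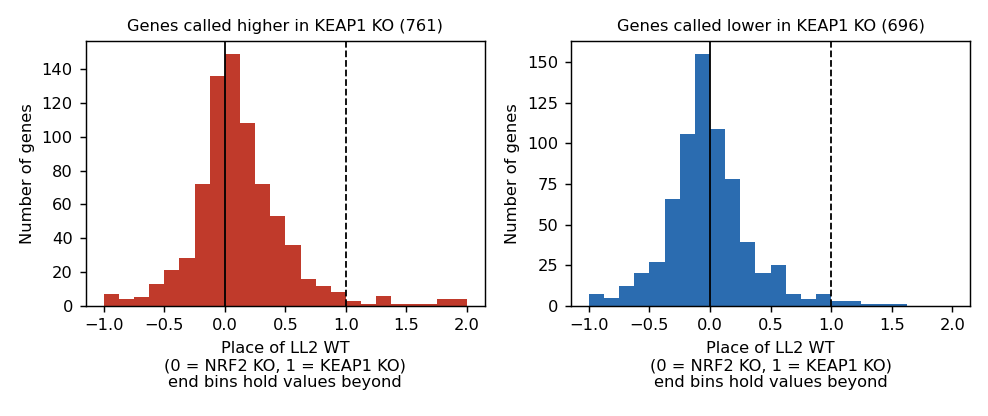
Number of genes (y axis) by the place of the LL2 WT mean between *NRF2* KO (0, solid line) and *KEAP1* KO (1, dashed line) on the log2 scale (x axis), for the 761 genes called higher (left) and the 696 called lower (right). Both peak next to 0, and the higher genes have the wider shoulder between 0 and 1, with 125 genes from 0.25 to 0.5 against 58 of the lower genes.

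LL2 WT was at the *KEAP1* KO end, at 0.75 or beyond, for 41 of the genes called higher and 20 of those called lower. *Ly9*, a receptor of the SLAM family, was 0.0436, 0.109 and 0.0267 CPM in *NRF2* KO, 7.53, 6.98 and 7.02 CPM in LL2 WT and had means of 7.71, 0.442 and 7.34 CPM in *KEAP1* KO #1, #2 and #3. *Mmp13* was 0.686, 0.440 and 2.11 CPM in *NRF2* KO, 4.16, 1.90 and 16.8 CPM in LL2 WT and 3.17 to 14.6 CPM (median 6.27) in *KEAP1* KO, and replicate 3 was the highest sample in each of the 5 lines. *Ugt1a7c* (place 0.79) and *Cxcl15* (0.80), named above, also belong here. The rest of the 41 and 20 genes are not described here, apart from those named for this place. *Zrsr1* (log2 2.65), *Selenop* (1.84), *1700030C10Rik* (3.45), *Pdcd5-ps* (−4.56) and *Evi2a* (−1.04) overlapped between the genotypes, and each lost its call when single libraries were left out. Except for *Evi2a*, the fold then stayed past the required size and the limma adjusted p no longer passed. The call of *Zrsr1* was lost without *NRF2* KO replicate 1 (2.14) or replicate 2 (2.08), and that of *Selenop* was lost without *NRF2* KO replicate 1 (1.60) or replicate 2 (1.62). The call of *Pdcd5-ps* was lost without *NRF2* KO replicate 1 (−3.005) or replicate 2 (−3.81), and that of *Evi2a* was lost without *KEAP1* KO #1 replicate 1 (−0.96) or *NRF2* KO replicate 2 (−0.97). *1700030C10Rik* lost its call when any 1 of 11 of the 15 libraries was left out, with 2.35 without *NRF2* KO replicate 1 or 3.

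The 3 *KEAP1* KO clones were alike in direction but not in size. All 3 lay on the side of the call for 744 of the 761 genes called higher and 672 of the 696 called lower, and all 3 were past a log2 of 1 or −1 for 512 and 378. Since the mean of the clones chose these genes, both counts describe them and test nothing. Clone #1 had the smallest difference from *NRF2* KO of the 3 clones for 509 of the genes called higher and 496 of those called lower, and its median log2 fold change was 1.48 and −1.21, against 1.93 and −1.83 for #2 and 2.01 and −1.87 for #3. Clone #1 also had the highest *Keap1* RNA of the 3 clones, 11.8 CPM, and a link with its smaller differences was not tested. An F test among the clones passed an adjusted p of 0.05 for 1842 of the genes tested (12.6%) and for 496 of the 1457 called genes (34.0%). The range of the clone means had a median of 0.94 in log2 in the called genes and 0.37 in all genes. The clones did not differ past the threshold for *Gclc*, *Me1*, *Blvrb*, *Cbr3*, *Nt5e* and *Ptgs2* (limma F test, adjusted p = 0.422, 0.341, 0.96, 0.191, 0.599 and 0.601), which does not show that the clones were equal. At the other end, *Thbs1*, which encodes a matrix protein that activates TGF-β, was 4.41, 2.75 and 8.22 CPM in *NRF2* KO and had means of 35.3, 0.191 and 0.467 CPM in *KEAP1* KO #1, #2 and #3 (adjusted p of the F test 1.67e-05), so its mean log2 of −1.54 describes no clone. The call of *Thbs1* was lost without *KEAP1* KO #2 replicate 1 (−1.47), *KEAP1* KO #3 replicate 2 (−1.47), *NRF2* KO replicate 1 (−1.58) or replicate 3 (−1.14). *Cdx2*, an intestinal homeobox gene, was 5.995 CPM in the mean of clone #1, 0 in clone #2 and 0.162 CPM in #3, with *NRF2* KO under the floor. The processed gene copies *Pcna-ps2* (means 49.7, 61.5 and 0.646 CPM), *Gm48836* (7.17, 0 and 4.58 CPM) and *Gm7984* (5.42, 4.07 and 0 CPM) were lost or nearly so in 1 clone and near *NRF2* KO in the others, and 75.2%, 100% and 67.5% of their 31-base words are shared with other genes.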

How the data were processed

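RNA of 15 samples was sequenced, and the authors deposited CPM for 35880 gene symbols, made by pseudo-alignment with Kallisto v0.48.0. The study's methods name GRCm38.p6 transcripts and the submitters' processing notes name GRCm39, so the build behind the values is uncertain. Whether transcript length entered the values is not given in the sources used here, and levels are not compared between genes. These are not counts and the depth per sample is unknown, so the floor of 0.1 CPM (3 reads at the depth the methods state) is approximate and covers counting error only. An entry without a symbol (0.0214% to 0.0491% of a sample) was left out.

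The 14652 symbols with a CPM sum of at least 3 over the 15 samples (21228 left out) entered a limma 3.58.1 fit (R 4.3.3) of log2(CPM + 0.1), with a mean per line and a trended empirical Bayes variance. The contrast was the mean of the 3 *KEAP1* KO clone means minus *NRF2* KO, an F test compared the clones, and p-values were adjusted by Benjamini-Hochberg over all genes tested. The study's methods call the samples biologic triplicates without tying them to days or passages, so p-values cover only the spread between these samples.

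Named genes are *Keap1* and *Nfe2l2*, up to 4 called members per list with a mean of at least 1 CPM in either genotype and members called against most of their list, and the 10 largest rises and falls at 5 CPM or more without overlap, predicted genes left out. They also include the 5 largest rises and falls with LL2 WT at 0.75 or more of the way to *KEAP1* KO, the 5 largest clone ranges and the 5 largest rises in CPM. Other genes named were chosen after their values were seen. Members and the 34 lists were chosen with earlier results of these data known. On simulated data with 14652 genes for this comparison, 97 of 100 genes changed by a log2 of 2 and 99 of 100 changed by 3 were called, with 6 unchanged genes. The changed genes had a mean level above about 1 CPM, every clone received the same shift, and the noise was independent between samples. The simulation therefore does not cover low genes, differences between clones or shifts shared by samples of the same number. Promoters came from RefSeq (GRCm38.p6), and 31-base words shared between genes were counted in GENCODE vM21 transcripts.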

Additional observations from a re-analysis of the deposited data

Results flagged for a closer look

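The 3 *KEAP1* KO clones differed among themselves (limma F test, adjusted p under 0.05) for 496 of the 1457 genes called between *KEAP1* KO and *NRF2* KO. For 10 of the named genes that were called, clone means lay on opposite sides of *NRF2* KO, as they did for *Nfe2l2*, which is not called. The range of the clone means, on the log2 scale, was 6.88 for *Thbs1*, 6.68 for *Pcna-ps2*, 5.99 for *Gm48836*, 5.93 for *Cdx2*, 5.75 for *Gm7984*, 5.62 for *Col6a2*, 5.10 for *Pdgfrb*, 4.75 for *Cdh2*, 4.54 for *Selenop* and 3.84 for *Ly6g*.

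In 4 of the 120 named genes, 1 of the 9 *KEAP1* KO samples lay far from the other 8 by Dixon's criterion, which chance alone meets in about 1 of 20 groups. *Blvrb* was lowest in *KEAP1* KO #1 replicate 2 with 171.274 CPM, *Cyp1a1* in *KEAP1* KO #1 replicate 1 with 2.44838 CPM and *Hexa* in *KEAP1* KO #2 replicate 3 with 83.9088 CPM. *Pdcd5-ps* was above 0 only in *KEAP1* KO #3 replicate 2 among these samples, with 0.0376061 CPM, which is under the floor.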

How the results depend on the processing

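The counts were recomputed under 33 alternatives, 32 planned and 1 (clones #2 and #3 only) chosen after seeing the data, which gave 823 genes higher and 880 lower. With a pseudocount of 1 CPM, 428 genes were called higher and 376 lower, LL2 WT was nearer to *NRF2* KO for 392 and 363 of them, and the clones differed for 322. With a mean per genotype and the line as a random block of samples, 434 were lower, 413 of them with LL2 WT nearer to *NRF2* KO. With line means as the samples, 78 were higher and 18 lower, LL2 WT was nearer to *NRF2* KO for 69 and 16, and 27.8% of the higher genes with a promoter held the motif. With clone #1 alone, 406 were lower, 376 with LL2 WT nearer to *NRF2* KO. Leaving out 1 library at a time gave 624 to 776 genes higher (554 to 698 with LL2 WT nearer to *NRF2* KO), 493 to 799 lower (453 to 748), 337 to 544 whose clones differed and 17.8% to 19.2% with the motif, and the lowest count of lower genes came without *NRF2* KO replicate 3. Other scalings, filters and pseudocounts stayed within 1.5 times of the counts.

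Same-numbered samples were not shown to be paired. Deviations of the *KEAP1* KO mean and *NRF2* KO from their line means correlated over 11676 genes at r = 0.126, 0.444 and 0.602 for numbers 1, 2 and 3, but for replicate 1 of clones #1 and #2 r was 0.055 and 0.043, and replicate 1 of *KEAP1* KO correlated better with replicate 2 of *NRF2* KO (0.337). With the replicate number as a block, 824 genes were higher, 804 lower and 795 differed between clones, and with replicate 3 as a term the latter was 779.

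The sign turned for *Nfe2l2* with clone #2 alone (0.07), with clones #2 and #3 only (0.03) and without *NRF2* KO replicate 3 (0.08, in a range from −0.18 over single libraries). With clone #1 alone it turned for *Col6a2* (0.31), *Cdh2* (0.06), *Pdgfrb* (2.26), *Ly6g* (−0.60), *Thbs1* (2.78), *Pcna-ps2* (0.45), *Gm48836* (0.24) and *Gm7984* (0.21), with clone #2 alone for *Selenop* (−0.19), *Pcna-ps2* (0.73) and *Cdx2* (−0.39), with clone #3 alone for *Cdh2* (0.17), and with a pseudocount of 1 CPM for *Pdgfrb* (0.01). Where single clones were used the clone means themselves lay on the other side of *NRF2* KO, and for the other cases the cause was not tested. Of 119 named calls, 27 held under every alternative, among them *Gclc*, *Gclm*, *Ggt1*, *Nqo1*, *Gsta3*, *Me1*, *Ptgs2*, *Nt5e*, *Dusp4*, *Col8a1* and *Adcyap1r1*, while 90 were lost with line means as the samples, 40 with clone #1 alone, 23 with a pseudocount of 1 CPM and 20 with the line as a random block.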
